A study of Mus musculus with 19 samples.

Results

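The genes studied here are 43 genes of DNA replication and mitosis. They were chosen as a list of cell cycle genes, with earlier results of these data known. Their levels were followed in kidneys of mice that were fasted for 3 days or fed ad libitum. By role, the list held 10 replication enzymes, 2 S phase histone genes, 1 fork repair gene, 3 cyclins of G1 and the G1/S transition, 13 mitotic kinases and regulators, 7 genes of chromosomes and spindle and 7 genes of cytokinesis. The last 3 roles are called mitosis genes below and comprise 27 genes. Each gene was read at the brightest, by the mean over all 19 arrays, of the probe sets that name it alone. This gave values for 42 of the 43 genes, out of 17097 genes and 45141 probe sets on the array, and for 26 of the 27 mitosis genes. Ccnb1 was not analysed here.
The aged-overweight mice were male F1-FVB/C57BL6 hybrids with an average age of 73 weeks and a weight of about 47 g, of which 5 were fasted with free access to water and 5 were fed ad libitum. The young-lean mice were male C57BL/6J mice of 10 to 14 weeks and 22 to 25 g, of which 4 were fasted in the same way and 5 were fed ad libitum. None of these mice had renal ischemia. Age, strain and body weight changed together, so their parts in a difference between aged and young cannot be told apart. RNA came from frozen pieces of both kidneys, 1 array per mouse, and levels are log2 values normalized by RMA. Array medians lay between 3.44 and 3.49 in aged kidneys and between 4.15 and 4.21 in young kidneys, so levels were compared between diets within an age only. Normalization seems to have been run per age, and its part in a difference between aged and young cannot be told apart either. In such whole-tissue RNA fewer cells of a type and less RNA per cell cannot be told apart. Markers of the proximal tubule averaged 10.3 to 11.2 on every array, whereas genes restricted to organs other than the kidney averaged 2.89 to 3.31.
A cell that divides first copies its DNA in S phase, with the MCM helicase opening the double helix, the sliding clamp Pcna holding the polymerases on it and ribonucleotide reductase and thymidylate synthase supplying nucleotides. It then separates the copied chromosomes in mitosis under the control of cyclin B and Cdk1, and splits in cytokinesis. In the adult kidney most tubule cells rest outside the cycle and enter it again mainly after injury. Transcripts of replication genes are classically driven by E2F factors in late G1, and those of mitosis genes later in the cycle, through CHR elements and CCAAT boxes that the MuvB core and NF-Y bind.
RefSeq windows of 300 bases around the annotated start (GRCm38.p6) were at hand for 36 of the 43 genes, without Mcm4, Ccnd1, Ccne2, Ccna2, Aurkb, Tpx2 and Kif20a, and were searched on both strands for the CCAAT box (letters CCAAT), the CHR element (letters TTTGAA) and E2F-type elements (letters TTTGGCG or TTTCCCG). These motifs share no bases with each other in the windows printed here. TTTGAA stood in 18 of 23 promoters of mitosis genes (78.3%) and in 1 of 9 promoters of replication enzymes (11.1%), against 18.1% of the 27025 promoters in the table. E2F-type elements stood in 2 of 23 promoters of mitosis genes (8.7%), in 4 of 9 promoters of replication enzymes (44.4%) and in 4.98% of all promoters. CCAAT boxes were frequent in both classes, with 19 of 23 (82.6%) and 8 of 9 (88.9%), against 37.9% of all promoters. Such a match is a description of the letters and no measured binding site. Printed below are a mitosis gene with both mitotic motifs that was called in aged kidneys (Ccnb2, chr9:70421505-70421804, minus strand), the member with the largest fall (Kif20b, chr19:34922108-34922407, plus strand), the replication enzyme that fell in both ages (Mcm6, chr1:128359656-128359955, minus strand) and the histone gene with the larger fall in young kidneys (H3c15, chr3:96239078-96239377, minus strand). Capitals mark CCAAT boxes, CHR elements or E2F-type elements in either orientation.
Ccnb2: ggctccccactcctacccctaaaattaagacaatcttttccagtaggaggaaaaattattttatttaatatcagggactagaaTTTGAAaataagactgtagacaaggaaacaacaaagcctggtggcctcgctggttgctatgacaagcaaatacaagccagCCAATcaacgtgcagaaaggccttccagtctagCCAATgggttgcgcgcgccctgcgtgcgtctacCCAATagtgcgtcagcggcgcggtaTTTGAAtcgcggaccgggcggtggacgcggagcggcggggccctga
Kif20b: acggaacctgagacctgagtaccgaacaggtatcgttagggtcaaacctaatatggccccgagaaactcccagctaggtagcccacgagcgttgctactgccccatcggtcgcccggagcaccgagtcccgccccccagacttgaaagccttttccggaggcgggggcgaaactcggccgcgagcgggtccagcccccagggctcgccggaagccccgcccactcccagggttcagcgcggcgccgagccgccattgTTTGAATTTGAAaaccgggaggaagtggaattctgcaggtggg
Mcm6: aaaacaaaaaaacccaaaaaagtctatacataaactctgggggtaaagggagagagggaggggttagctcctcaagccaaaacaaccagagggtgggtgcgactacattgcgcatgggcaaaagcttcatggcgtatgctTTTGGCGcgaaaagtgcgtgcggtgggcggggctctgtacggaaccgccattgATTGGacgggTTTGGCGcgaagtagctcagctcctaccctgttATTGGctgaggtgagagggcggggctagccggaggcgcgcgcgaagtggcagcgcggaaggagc
H3c15: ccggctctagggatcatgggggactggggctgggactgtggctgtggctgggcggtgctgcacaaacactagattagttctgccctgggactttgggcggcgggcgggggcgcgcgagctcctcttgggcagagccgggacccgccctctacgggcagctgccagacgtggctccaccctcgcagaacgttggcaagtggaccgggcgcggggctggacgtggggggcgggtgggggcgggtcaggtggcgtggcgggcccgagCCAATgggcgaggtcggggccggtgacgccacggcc
The Ccnb2 window held 3 CCAAT boxes and 2 TTTGAA elements, the Kif20b window 2 TTTGAA elements next to each other and no CCAAT box, the Mcm6 window 2 CCAAT boxes and 2 E2F-type elements, and the H3c15 window 1 CCAAT box.
Most mitosis genes in aged kidneys, and a smaller share in young kidneys, were near the lower end of what the arrays measure, whereas most replication enzymes were well above it in both ages. A gene was called dim in an age when the average of its 2 diet means did not exceed the 90th percentile of 43 genes restricted to other organs, which lay at a log2 level of 3.30 in aged and 3.53 in young kidneys. By this limit 21 of the 42 genes were dim in aged kidneys and 14 in young kidneys, against 34.6% and 30.6% of all genes. Of the mitosis genes, 16 of 26 were dim in aged and 10 of 26 in young kidneys. Of the replication enzymes, Mcm3 and Mcm5 were dim in both ages and the other 8 in neither. A total of 12 genes were dim in both ages, namely Mcm3, Mcm5, the S phase cyclins Ccne1 and Ccne2, the kinases Aurkb and Bub1, Cdca8, the spindle genes Kif11 and Tpx2 and the cytokinesis genes Kif20a, Kif23 and Racgap1. In aged kidneys only, Rad18, Bub1b, Birc5, Mki67, Top2a, Cenpf, Prc1, Ect2 and Anln were dim, and in young kidneys only, Ccnb2 and Aurka. Of a dim gene a missing change says little, since a change in a transcript near background is hardly measured. With the median of all probe sets as the limit, 22 genes were dim in young and 25 in aged kidneys. Of the 26 mitosis genes, 18 in young and 20 in aged kidneys were then dim, so most were dim in both ages.

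**Figure D1:**
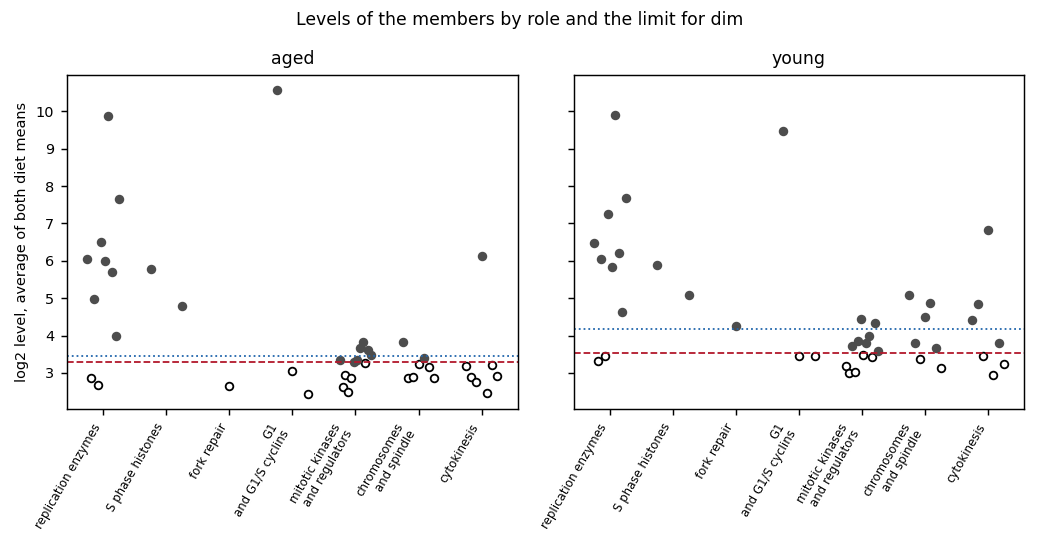
Log2 level (average of the fasted and the ad libitum fed mean) of each of the 42 measured genes, by role, in aged (left) and young kidneys (right); open circles are dim genes, the dashed red line is the dim limit (3.30 aged, 3.53 young) and the dotted blue line the median of all probe sets. Replication enzymes other than Mcm3 and Mcm5 sit above both lines, and 16 (aged) and 10 (young) of the 26 mitosis genes lie at or below the dashed line.

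The genes did not move together with fasting. A gene passed the test at a limma p adjusted over all probe sets of at most 0.05, and was called when the fold change was also at least 1.5. In aged kidneys 4 of the 42 genes were called (9.52%), where 2.67% of all genes were. Tyms and Ccnb2 rose (1.39% of all genes were called upward), and Mcm6 and Kif20b fell (1.28% downward). In young kidneys 9 of 42 were called (21.4%), where 6.49% of all genes were. Here Rrm2, Rad18 and Anln rose (2.95% upward), and Mcm6, H3c14, H3c15, Cenpe, Kif20b and Ect2 fell (3.53% downward). By the average of both diets all of these were above the dim limit of that age, Ccnb2 in aged kidneys through its fasted mean alone (3.66, against 3.02 in mice fed ad libitum). Among all genes above the limit 4.05% were called in aged and 9.3% in young kidneys. The list was made with earlier results known, so a share above that of all genes may come from how it was made. Without the fold minimum 8 genes passed in aged kidneys (9.16% of all genes), of which 5 rose and 3 fell, and 13 passed in young kidneys (23.2% of all genes), of which 5 rose and 8 fell. The median log2 change of the 42 genes was 0.03 in aged and -0.03 in young kidneys, beside -0.01 over all genes in each age, and that of the 26 mitosis genes was 0.06 and 0.01. The aged counts rested on single mice. The 4 calls became 2 when the fasted mouse 38 or 41 or the ad libitum fed mouse 37 was left out, each time without Ccnb2 and Mcm6, where Mcm6 passed the test and missed the fold minimum. The 8 genes that passed became 4 without the fasted mouse 41 or the ad libitum fed mouse 36, and 5 without the fasted mice 38 or 42 or the ad libitum fed mouse 34. Transcripts of liver were high in the aged fasted mouse 33, with a mean marker level of 9.09 against 5.25 to 5.55 in the other aged fasted mice. Without it the same 4 genes were called.

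**Figure D2:**
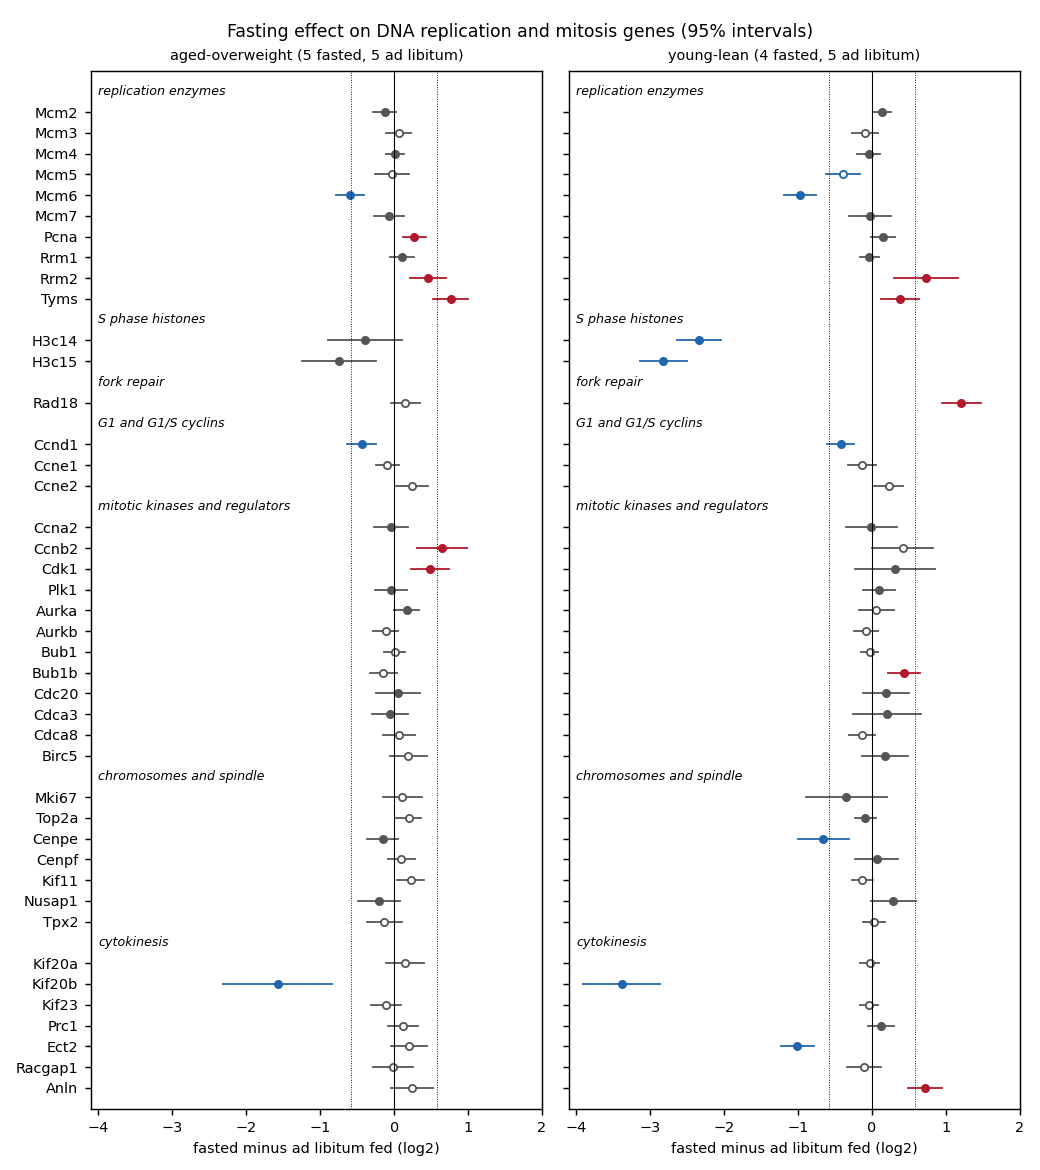
Log2 change (fasted minus ad libitum fed) with 95% interval for the 42 genes by role in aged (left) and young kidneys (right); red and blue mark genes that passed the test upward and downward, grey those that did not, open circles are dim genes and dotted lines mark a fold of 1.5. Kif20b fell in both ages, H3c14, H3c15 and Ect2 passed downward in young kidneys only, and most mitosis genes lie close to 0.

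Among the replication enzymes, 4 of 10 passed in each age, with 3 upward and 1 downward in aged kidneys and 2 in each direction in young kidneys. The share that passed among all genes, in either direction, was 9.16% in aged and 23.2% in young kidneys. Mcm6, a subunit of the MCM helicase, was the member of this role that fell in both ages. In aged kidneys its log2 levels were 6.28, 6.04, 6.36, 6.10 and 6.18 in fasted mice, against 6.73, 6.80, 7.05, 6.67 and 6.71 in ad libitum fed mice. In young kidneys they were 6.91, 6.62, 6.70 and 6.87 in fasted mice, against 7.57, 7.81, 7.63, 7.65 and 8.04 in ad libitum fed mice. Every fasted mouse was below every ad libitum fed mouse of its age, a lack of overlap in either direction that held for 5 of the 42 genes in aged kidneys (10.2% of all genes) and for 12 in young kidneys (21.3% of all genes). The level fell by 0.60 ± 0.09 (SE, adjusted p = 0.0016), or 1.51-fold, in aged and by 0.97 ± 0.10 (SE, adjusted p = 5.87e-05), or 1.96-fold, in young kidneys. Of the other MCM subunits, none passed in aged kidneys and only dim Mcm5 passed, downward, in young kidneys. Mcm2, Mcm4 and Mcm7, all above the dim limit, changed by -0.13, 0.01 and -0.07 in aged and by 0.14, -0.04 and -0.03 in young kidneys, and passed in neither. Dim Mcm3 changed by 0.06 in aged and -0.09 in young kidneys, and dim Mcm5 by -0.03 in aged and -0.39 in young kidneys, where it passed with 3.26 ± 0.14 in fasted and 3.66 ± 0.20 in ad libitum fed mice (SD, n = 4 and 5, adjusted p = 0.0213) although its average over both diets stayed below the dim limit.
Of the enzymes that make DNA precursors, Tyms and Rrm2 rose in both ages on their brightest probe set and Rrm1 passed in neither age. Tyms, thymidylate synthase, had log2 levels of 8.33, 8.04, 8.18, 7.93 and 7.76 in aged fasted mice, against 7.36, 7.29, 7.12, 7.50 and 7.15 in aged mice fed ad libitum. In young kidneys it had 8.02, 7.86, 8.06 and 7.59 in fasted mice, against 7.70, 7.47, 7.53, 7.20 and 7.61 in ad libitum fed mice. The aged groups did not overlap, and in young kidneys the fasted mouse 344 lay within the ad libitum fed range. Tyms rose by 0.76 ± 0.11 (SE, adjusted p = 0.00136), or 1.7-fold, in aged and by 0.38 ± 0.11 (SE, adjusted p = 0.037) in young kidneys. The young value no longer passed when any one of the fasted mice 339, 340 or 343 or the ad libitum fed mice 347, 348 or 349 was left out, with adjusted p up to 0.106. It was also lost with an ordinary model, median centring or the mean of the gene's probe sets (adjusted p up to 0.112). The aged value passed in all other settings, with changes of 0.23 to 0.78. Tyms has 5 probe sets, and the dimmer ones, with means of 2.72 to 3.15 over all arrays, passed in neither age. Rrm2, the cell cycle regulated small subunit of ribonucleotide reductase, had 3.95, 4.01, 4.41, 4.32 and 4.34 in aged fasted mice, against 3.68, 3.68, 3.87, 3.55 and 3.97 in aged mice fed ad libitum. In young mice it had 4.84, 4.46, 4.92 and 5.72 when fasted, against 4.35, 4.40, 4.18, 4.07 and 4.26 when fed ad libitum. The young groups did not overlap, although the gap was 0.06 between the fasted mouse 340 and the highest ad libitum fed mouse, and the fasted mouse 344 stood above the rest. Rrm2 rose by 0.46 ± 0.11 (SE, adjusted p = 0.0284) in aged and by 0.73 ± 0.20 (SE, adjusted p = 0.0215), or 1.66-fold, in young kidneys, and by 0.49 in young kidneys without mouse 344, below the fold minimum. The young value missed the threshold without the ad libitum fed mouse 348 (adjusted p = 0.0501), and the aged value without any one of the fasted mice 39, 41 or 42 or the ad libitum fed mice 34, 36 or 40 (adjusted p up to 0.0799). Both values were also lost with an ordinary model or the mean of the gene's probe sets (adjusted p up to 0.104 in young kidneys). The aged value was lost with all 19 arrays in the same fit as well (adjusted p up to 0.189 over these settings). A second probe set of Rrm2, dim, changed by -0.02 in aged (adjusted p = 0.941) and 0.09 in young kidneys (adjusted p = 0.763). Rrm1, the large subunit, changed by 0.11 in aged and -0.03 in young kidneys and passed in neither.
Pcna, the sliding clamp, was the brightest replication enzyme. It stood at 10.09, 10.04, 10.07, 9.90 and 9.94 in aged fasted mice, against 9.85, 9.64, 9.83, 9.62 and 9.76 in aged mice fed ad libitum, and at 9.97, 9.93, 10.11 and 9.93 in young fasted mice, against 9.98, 9.74, 9.79, 9.71 and 9.93 in young mice fed ad libitum. The aged groups did not overlap and the young groups did. The change was 0.27 ± 0.07 (SE, adjusted p = 0.0421) in aged kidneys, which passed with all mice but not when any one other than the ad libitum fed mouse 34 was left out (adjusted p up to 0.102), and 0.15 ± 0.07 (SE, adjusted p = 0.185) in young kidneys. The 6 replication enzymes that did not pass in an age had 95% intervals of their change between -0.29 and 0.27 in aged and between -0.32 and 0.32 in young kidneys, all within a fold of 1.5.
The S phase histone genes H3c14 and H3c15, which encode histone H3 for newly copied DNA, had the largest falls after Kif20b, and these were in young kidneys. H3c15 had log2 levels of 3.65, 3.31, 3.88 and 3.90 in young fasted mice, against 6.39, 6.76, 6.65, 6.59 and 6.13 in young mice fed ad libitum. H3c14 had 4.81, 4.39, 5.13 and 4.54 in young fasted mice, against 7.21, 6.94, 7.22, 6.86 and 7.04 in young mice fed ad libitum. Groups were far apart for both genes. In aged kidneys H3c15 had 3.87, 4.73, 4.22, 4.24 and 4.99 in fasted mice, against 4.67, 5.33, 5.49, 4.70 and 5.58 in ad libitum fed mice. H3c14 had 5.08, 6.15, 4.87, 5.72 and 6.07 in aged fasted mice, against 5.72, 6.22, 6.11, 5.69 and 6.10 in aged mice fed ad libitum. Groups overlapped for both genes there. H3c15 changed by -0.74 ± 0.23 (SE, adjusted p = 0.0804) in aged kidneys and fell by 2.82 ± 0.15 (SE, adjusted p = 5.05e-07), or 7.05-fold, in young kidneys. H3c14 changed by -0.39 ± 0.23 (SE, adjusted p = 0.41) in aged and fell by 2.34 ± 0.14 (SE, adjusted p = 1.1e-06), or 5.05-fold, in young kidneys. A second probe set of H3c14 also fell in young kidneys, by 1.06 (adjusted p = 0.00103), and changed by -0.26 (adjusted p = 0.555) in aged kidneys. Histone H3 genes are nearly identical in their coding parts, so a probe set may bind transcripts of more than 1 of them.
Other core histone genes of the histone clusters were looked at for this reason, a list made after values had been seen. Of 11 such genes, 3 fell and 0 rose in aged kidneys and 5 fell and 0 rose in young kidneys. Over all genes 9.16% passed in aged and 23.2% in young kidneys, in either direction. H3c1 averaged 7.56 ± 0.13 in aged fasted and 8.24 ± 0.08 in aged mice fed ad libitum (SD, n = 5 each, adjusted p = 0.000192), and 7.77 ± 0.15 in young fasted and 8.89 ± 0.15 in young mice fed ad libitum (SD, n = 4 and 5, adjusted p = 1.04e-05). H4c9, a histone H4 gene, fell by 0.74 in aged (adjusted p = 0.000377) and by 1.40 in young kidneys (adjusted p = 3.1e-05). The remaining 8 in aged and 6 in young kidneys did not pass, and 5 of the 11 genes were dim in aged and 4 in young kidneys.
Rad18, a ubiquitin ligase that marks Pcna at stalled forks, rose in young kidneys. Its log2 levels there were 4.65, 4.97, 4.62 and 5.23 in fasted mice, against 3.70, 3.59, 3.51, 3.71 and 3.77 in ad libitum fed mice. In aged kidneys, where it was dim, they were 2.68, 2.60, 2.74, 2.65 and 2.97 in fasted mice, against 2.68, 2.51, 2.74, 2.40 and 2.55 in ad libitum fed mice. The young groups were separate and the aged groups overlapped. The change was 0.15 ± 0.09 (SE, adjusted p = 0.407) in aged kidneys and 1.21 ± 0.12 (SE, adjusted p = 3.8e-05), or 2.31-fold, in young kidneys. Of 3 further probe sets of Rad18, all dim, 2 also passed upward in young kidneys, with changes of 0.26 (adjusted p = 0.0441) and 0.40 (adjusted p = 0.0205), and the last changed by 0.11 (adjusted p = 0.329).
Ccnd1, cyclin D1, which couples growth signals to entry into the cycle and is abundant in kidney, fell by nearly the same amount in both ages. It stood at 10.30, 10.32, 10.44, 10.38 and 10.36 in aged fasted mice, against 10.91, 10.47, 10.90, 10.96 and 10.76 in aged mice fed ad libitum. Young fasted mice had 9.12, 9.19, 9.32 and 9.39, against 9.63, 9.66, 9.52, 9.84 and 9.75 in young mice fed ad libitum. The groups overlapped in neither age. The fall was 0.44 ± 0.09 (SE, adjusted p = 0.0126) in aged and 0.42 ± 0.08 (SE, adjusted p = 0.00339) in young kidneys, under the fold minimum in both. Both further probe sets of Ccnd1 fell in young kidneys (adjusted p = 0.00344 and 0.00403), and 1 of them passed in aged kidneys (adjusted p = 0.0235). Cyclin E, which acts at the G1/S transition, was dim. Ccne1 was at 3.10, 2.92, 3.00, 3.10 and 2.94 in aged fasted mice, against 2.95, 3.12, 3.15, 3.20 and 3.10 in aged mice fed ad libitum, and at 3.47, 3.40, 3.47 and 3.23 in young fasted mice, against 3.52, 3.30, 3.59, 3.52 and 3.72 in young mice fed ad libitum. These values overlapped, with changes of -0.09 (adjusted p = 0.552) in aged and -0.14 (adjusted p = 0.327) in young kidneys. Ccne2 changed by 0.24 in aged and 0.23 in young kidneys and passed in neither.

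**Figure D3:**
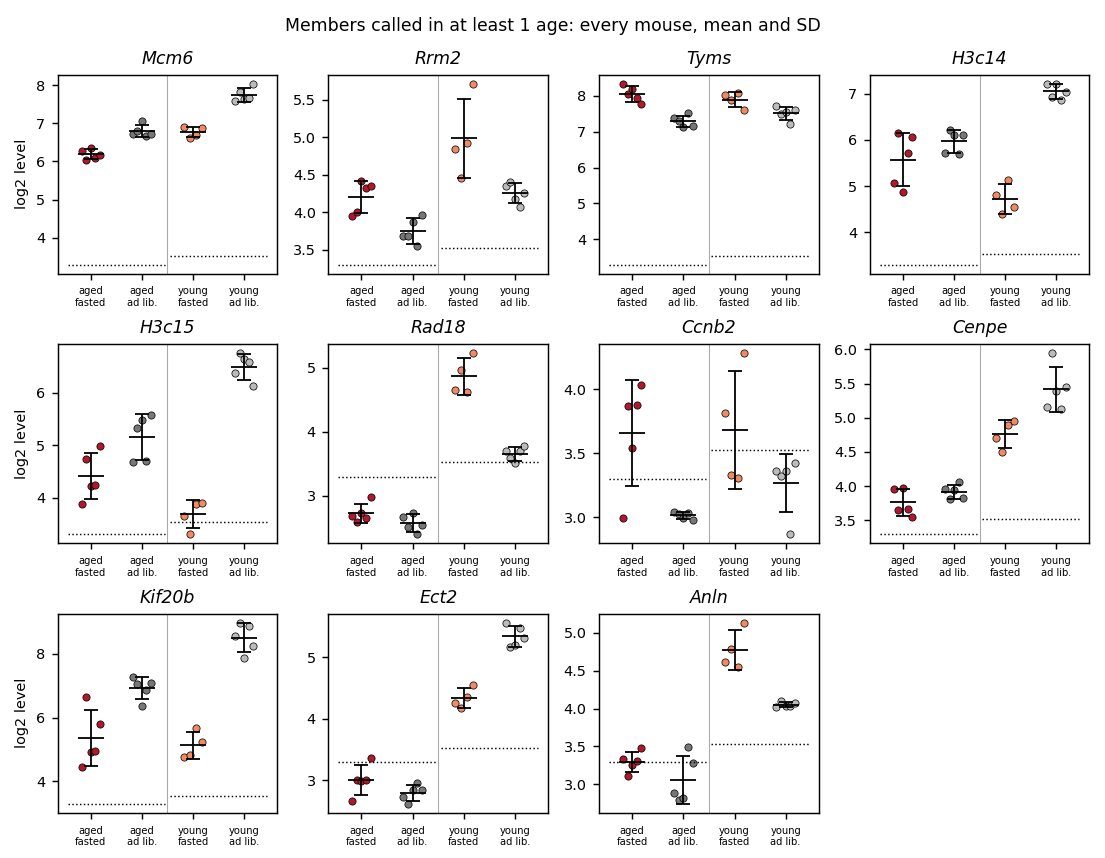
Log2 level per mouse of the 11 genes called in at least 1 age, with aged fasted, aged ad libitum fed, young fasted and young ad libitum fed mice side by side; each point is a mouse, bars are mean and SD, dotted lines the dim limit of each age (3.30 and 3.53), and panels have scales of their own. Mcm6 separates the diets in both ages, and Rrm2, H3c14, H3c15, Rad18, Cenpe, Kif20b, Ect2 and Anln do so in young kidneys only.

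Of the 12 measured mitotic kinases and regulators, Ccnb2 and Cdk1 rose in aged kidneys, Bub1b rose in young kidneys and the others passed in neither age. Ccnb2, cyclin B2, had 2.99, 3.87, 3.54, 3.87 and 4.03 in aged fasted mice, against 3.04, 3.03, 2.99, 3.03 and 2.98 in aged mice fed ad libitum. In young kidneys, where it was dim, it had 3.81, 3.33, 3.31 and 4.28 in fasted mice, against 3.36, 3.32, 3.36, 2.87 and 3.42 in ad libitum fed mice. In aged kidneys 4 of the 5 fasted mice were above the whole ad libitum fed group and mouse 33 was within it. The change was 0.65 ± 0.16 (SE, adjusted p = 0.0288), or 1.56-fold, in aged and 0.42 ± 0.19 (SE, adjusted p = 0.163) in young kidneys. The aged call was lost without any one of the fasted mice 38, 41 or 42 or the ad libitum fed mice 34, 36, 37 or 43, with adjusted p up to 0.0821, and all aged ad libitum fed mice were below the dim limit. This call was also lost with an ordinary model (adjusted p = 0.109). Cdk1, the kinase that drives entry into mitosis, stood at 3.58, 4.14, 3.77, 3.92 and 3.85 in aged fasted mice, against 3.22, 3.27, 3.55, 3.16 and 3.63 in aged mice fed ad libitum. Young fasted mice had 4.53, 3.68, 4.52 and 5.19, against 4.11, 4.18, 3.80, 4.18 and 4.58 in young mice fed ad libitum. The lowest aged fasted mouse was below 1 ad libitum fed mouse, and in young kidneys the fasted mice were both the lowest and the highest. The change was 0.48 ± 0.12 (SE, adjusted p = 0.0278) in aged kidneys, which no longer passed without any one of the fasted mice 38, 41 or 42 or the ad libitum fed mice 34, 36 or 40 (adjusted p up to 0.075), and 0.31 ± 0.25 (SE, adjusted p = 0.465) in young kidneys. The aged rise of Cdk1 was also lost with an ordinary model or all 19 arrays in the same fit (adjusted p up to 0.137).
Ccna2 (cyclin A2), the polo kinase Plk1, the Aurora kinases Aurka and Aurkb, the checkpoint kinase Bub1, Cdc20, which activates the anaphase-promoting complex, and the chromosomal passenger genes Birc5 and Cdca8 changed by -0.12 to 0.19 in aged and -0.13 to 0.19 in young kidneys. Cdca3, a mitotic entry gene and the second brightest of this role, was at 3.53, 3.82, 4.06, 4.06 and 3.51 in aged fasted mice, against 3.79, 3.89, 3.75, 3.97 and 3.87 in aged mice fed ad libitum, and at 3.80, 3.61, 4.04 and 4.88 in young fasted mice, against 3.65, 4.03, 3.96, 3.78 and 3.98 in young mice fed ad libitum. Its groups overlapped in both ages, and changes were -0.06 (adjusted p = 0.856) and 0.20 (adjusted p = 0.593). Bub1b, the checkpoint protein BubR1, averaged 2.78 ± 0.12 in aged fasted and 2.93 ± 0.14 in aged mice fed ad libitum (SD, n = 5 each, adjusted p = 0.401, dim), and 4.06 ± 0.18 in young fasted and 3.62 ± 0.15 in young mice fed ad libitum (SD, n = 4 and 5, adjusted p = 0.00853). A second probe set of Bub1b at a like level changed by 0.01 in young kidneys (adjusted p = 0.941).
Among the 7 genes of chromosomes and spindle, none passed in aged kidneys and Cenpe passed in young kidneys. Cenpe, a kinesin that carries chromosomes to the spindle equator, had 3.96, 3.66, 3.98, 3.67 and 3.55 in aged fasted mice, against 3.95, 3.81, 3.95, 4.06 and 3.83 in aged mice fed ad libitum. Young fasted mice had 4.70, 4.51, 4.89 and 4.95, against 5.16, 5.94, 5.40, 5.13 and 5.46 in young mice fed ad libitum. The aged groups overlapped and the young groups did not. The change was -0.16 ± 0.09 (SE, adjusted p = 0.422) in aged kidneys, and in young kidneys the level fell by 0.65 ± 0.16 (SE, adjusted p = 0.0117), or 1.57-fold. The young call was lost with an ordinary model without moderation (adjusted p = 0.065) and, by the fold minimum, with the mean of both probe sets (-0.33), without the ad libitum fed mouse 347 (-0.52) and without the fasted mouse 340 (-0.57). Its other probe set was dim and changed by 0.0014 in young kidneys. Nusap1, a spindle microtubule protein, had 2.99, 3.47, 3.49, 3.39 and 3.09 in aged fasted mice, against 3.69, 3.38, 3.12, 3.73 and 3.52 in aged mice fed ad libitum, and 5.17, 4.48, 5.14 and 5.25 in young fasted mice, against 4.72, 4.85, 4.60, 4.85 and 4.58 in young mice fed ad libitum. In young kidneys 3 of the 4 fasted mice were above the ad libitum fed group and mouse 340 below it. Changes were -0.21 ± 0.13 (SE, adjusted p = 0.459) and 0.29 ± 0.14 (SE, adjusted p = 0.193). Mki67, which encodes the proliferation marker Ki-67, ranged from 2.95 to 3.73 in aged fasted and from 2.99 to 3.35 in aged mice fed ad libitum (dim), and from 3.87 to 5.07 in young fasted and from 4.22 to 5.19 in young mice fed ad libitum. It changed by 0.11 ± 0.12 (SE, adjusted p = 0.721) in aged and -0.35 ± 0.25 (SE, adjusted p = 0.412) in young kidneys. Top2a, the topoisomerase that untangles sister chromosomes, ranged from 3.14 to 3.49 in aged fasted and from 2.92 to 3.12 in aged mice fed ad libitum, dim and without overlap, and did not pass (0.20 ± 0.08, SE, adjusted p = 0.183). Cenpf, Kif11 and Tpx2 changed by -0.13 to 0.22 in aged and by -0.13 to 0.06 in young kidneys.
The cytokinesis genes held the largest fall of the list. Kif20b, a kinesin of late mitosis, was the brightest mitosis gene. In aged kidneys it stood at 4.44, 6.65, 4.93, 4.96 and 5.80 in fasted mice, against 7.28, 7.05, 6.36, 6.87 and 7.08 in ad libitum fed mice. In young kidneys it stood at 4.78, 4.84, 5.68 and 5.22 in fasted mice, against 8.57, 8.98, 7.87, 8.88 and 8.24 in ad libitum fed mice. The young groups were more than 2 log2 units apart, and in aged kidneys the fasted mouse 38 was above the lowest ad libitum fed mouse. Kif20b fell by 1.58 ± 0.34 (SE, adjusted p = 0.0153), or 2.98-fold, in aged and by 3.38 ± 0.24 (SE, adjusted p = 4.11e-06), or 10.4-fold, in young kidneys. The aged fall did not pass with an ordinary model without moderation (adjusted p = 0.0864) or with a trended, robust prior (adjusted p = 0.0538). A second probe set of the gene was dim, with means of 2.62 in aged fasted and 2.57 in aged mice fed ad libitum and of 2.93 in young fasted and 3.13 in young mice fed ad libitum, and passed in neither age (adjusted p = 0.869 and 0.174). The fall of Kif20b therefore stood on 1 probe set.
Ect2, which activates RhoA at the cleavage furrow, had 4.25, 4.17, 4.36 and 4.55 in young fasted mice, against 5.56, 5.16, 5.20, 5.47 and 5.31 in young mice fed ad libitum. In aged kidneys, where it was dim, it had 2.67, 3.00, 2.99, 3.00 and 3.37 in fasted mice, against 2.72, 2.62, 2.85, 2.96 and 2.85 in ad libitum fed mice. The young groups were separate and the aged groups overlapped. Ect2 changed by 0.21 ± 0.11 (SE, adjusted p = 0.37) in aged kidneys and fell by 1.01 ± 0.10 (SE, adjusted p = 4.43e-05), or 2.01-fold, in young kidneys, on its only single-gene probe set. Anln, anillin, a scaffold of the contractile ring, rose in young kidneys, with 4.61, 4.78, 4.54 and 5.13 in fasted mice, against 4.02, 4.10, 4.03, 4.03 and 4.07 in ad libitum fed mice. Aged fasted mice had 3.33, 3.11, 3.25, 3.31 and 3.48, against 2.89, 2.80, 2.82, 3.49 and 3.28 in aged mice fed ad libitum. Anln was dim and overlapping in aged kidneys, where it changed by 0.24 ± 0.13 (SE, adjusted p = 0.373), and separate in young kidneys, where it rose by 0.72 ± 0.10 (SE, adjusted p = 0.000564), or 1.65-fold. Its second probe set, dim, changed by 0.05 in young kidneys (adjusted p = 0.678). Ect2 and Anln act in the same step of division and moved in opposite directions in young kidneys. Kif20a, Kif23, Prc1 and Racgap1, which build the central spindle, changed by -0.11 to 0.15 in aged and by -0.10 to 0.12 in young kidneys and passed in neither.
For the mitosis genes that did not pass, the intervals give what the arrays could have missed. All 23 in aged kidneys had 95% intervals within a fold of 1.5. In young kidneys 16 of 21 did, and the intervals of Ccnb2, Cdk1, Cdca3, Mki67 and Nusap1 were wider, with bounds of up to -0.90 and 0.85 over all 21. For dim genes such an interval holds for the measured signal and not for the transcript.
The mean level of each class per mouse did not separate the diets for the mitosis genes. Over the 8 replication enzymes above the dim limit it was 6.40, 6.36, 6.46, 6.36 and 6.38 in aged fasted mice, against 6.25, 6.28, 6.36, 6.27 and 6.29 in aged mice fed ad libitum. In young mice it was 6.79, 6.70, 6.75 and 6.89 when fasted, against 6.75, 6.80, 6.71, 6.62 and 6.81 when fed ad libitum. In aged kidneys the lowest fasted mouse (6.3599) was just above the highest ad libitum fed mouse (6.3588), and the young diets overlapped. Over the 10 mitosis genes above the limit in aged kidneys it was 3.49, 3.94, 3.74, 3.81 and 3.81 in fasted mice, against 3.87, 3.75, 3.80, 3.85 and 3.88 in ad libitum fed mice. Over the 16 above the limit in young kidneys it was 4.13, 3.98, 4.28 and 4.62 in fasted mice, against 4.40, 4.49, 4.31, 4.43 and 4.51 in ad libitum fed mice. Both pairs overlapped, and fasted mice spread more widely than ad libitum fed mice, with SDs of 0.16 and 0.06 in aged and 0.27 and 0.08 in young kidneys. The difference of the group means, fasted minus ad libitum fed, was -0.07 in aged and -0.18 in young kidneys, and without Kif20b it was 0.09 and 0.03. In aged kidneys Ccnb2 and Aurka were above the dim limit in fasted mice only, and Ccna2 and Nusap1 in mice fed ad libitum only. Without Kif20b, the difference was 0.06 in aged kidneys over the 5 genes above the limit in both diets, and over all 25 measured genes, dim ones included, it was 0.08 in aged and 0.02 in young kidneys.

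**Figure D4:**
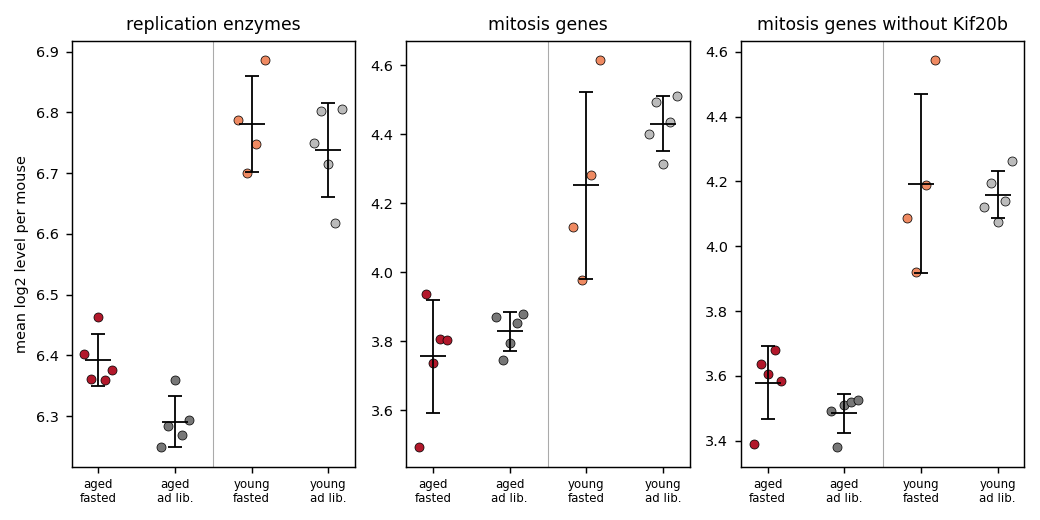
Mean log2 level per mouse over the replication enzymes, the mitosis genes and the mitosis genes without Kif20b that are above the dim limit of that age (8, 10 and 9 genes in aged, 8, 16 and 15 in young kidneys), for aged fasted, aged ad libitum fed, young fasted and young ad libitum fed mice; points are mice and bars mean and SD. Levels may be compared within an age only, and the young fasted mice spread from 3.98 to 4.62 over the mitosis genes.

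That spread went through many genes at once. The young fasted mouse 344 was the highest of all 9 young mice for 10 of the 16 mitosis genes above the limit, among them Cdk1, Ccna2, Cdc20, Birc5, Cenpf and Anln, and the young fasted mouse 340 was the lowest of the 9 for 9 of them. In aged kidneys the fasted mouse 33 had the lowest mean of its group, 3.49 against 3.74 to 3.94 in the other fasted mice. It was the lowest of its group for 7 of the 10 mitosis genes above the limit. This is the mouse with high liver transcripts, whose part in the spread was not tested. These mice were singled out after their values were seen. Mouse 344 also had the lowest mean level of brown adipocyte markers among the young fasted mice (4.86 against 5.74 to 6.44 in the other 3) and of white adipocyte markers (4.90 against 6.21 to 6.92), whose part in the spread was not tested. Without mouse 344 the young calls were 8, with Rrm2 lost, and without mouse 340 they were 8, with Cenpe lost.
Aged and young kidneys differed in their response to fasting for 6 of the 42 genes (2.44% of all genes), by a test of the difference with no fold minimum. Here, too, the excess over all genes may come from how the list was made. The difference, aged minus young, was 2.07 ± 0.30 (SE, adjusted p = 0.00104) for H3c15 and 1.94 ± 0.30 (SE, adjusted p = 0.00168) for H3c14, both of which fell in young kidneys and did not pass in aged kidneys. For Ect2 it was 1.21 ± 0.16 (SE, adjusted p = 0.000435), for Rad18 -1.06 ± 0.15 (SE, adjusted p = 0.000927) and for Bub1b -0.59 ± 0.13 (SE, adjusted p = 0.0257), and all 3 of these genes were dim in aged kidneys, where a change would hardly have been measured. Kif20b differed by 1.80 ± 0.46 (SE, adjusted p = 0.0469), a difference that no longer passed when any one mouse was left out, other than the aged fasted mice 33 or 39, the young fasted mouse 343 or the young ad libitum fed mouse 348 (adjusted p up to 0.101). With an ordinary model or a trended, robust prior the Kif20b difference did not pass either (adjusted p up to 0.121). Bub1b did not pass without the young fasted mouse 344. No replication enzyme differed between the ages at this threshold. Mcm6 and Ccnd1 differed by 0.37 ± 0.14 (SE, adjusted p = 0.202) and -0.01 ± 0.13 (SE, adjusted p = 0.98).
Where a gene had several single-gene probe sets, the dimmer ones often showed no change. The 42 genes had 77 such probe sets, 16 genes with 1 and 26 with several. In aged kidneys 4 of the 8 genes that passed had further probe sets, of which 1 gene had another that passed in the same direction, 0 had one in the opposite direction and 3 had further ones that were all dim. In young kidneys these counts were 10, 3, 0 and 6.
Genes of the same processes outside the list of 43 were mostly below the test's threshold as well. Of 47 other measured replication genes, 2 rose and 1 fell in aged kidneys and 5 rose and 6 fell in young kidneys. In aged kidneys Rfc4, a clamp loader subunit, averaged 5.64 ± 0.21 in fasted and 5.17 ± 0.14 in ad libitum fed mice (SD, n = 5 each, adjusted p = 0.0183), and in young kidneys Rfc1, its largest partner subunit, averaged 7.74 ± 0.12 in fasted and 7.30 ± 0.09 in ad libitum fed mice (SD, n = 4 and 5, adjusted p = 0.00139), while Pole2, a subunit of DNA polymerase epsilon, fell by 0.57 (adjusted p = 0.00481). Rfc4 passed upward in young kidneys too. Of 53 other measured mitosis genes, 2 rose and 1 fell in each age, and 34 were dim in aged and 26 in young kidneys. Spc25, a subunit of the kinetochore complex NDC80, rose in both ages, with 8.82 ± 0.14 in aged fasted and 7.41 ± 0.17 in aged mice fed ad libitum (SD, n = 5 each, adjusted p = 4.72e-06) and 9.74 ± 0.12 in young fasted and 8.47 ± 0.24 in young mice fed ad libitum (SD, n = 4 and 5, adjusted p = 2.22e-05). Its partner Spc24 rose by 0.75 in aged kidneys (adjusted p = 0.0364). Smc2, a condensin subunit, fell by 0.84 in young kidneys (adjusted p = 0.00118). All these lists were chosen with earlier results known, and 9.16% of all genes passed in aged and 23.2% in young kidneys.
Of a list of 18 cell cycle inhibitors and arrest genes, 3 rose and 0 fell in aged kidneys. In young kidneys 10 rose and 0 fell, and median changes were 0.14 in aged and 0.29 in young kidneys. Over all genes 9.16% passed in aged and 23.2% in young kidneys, in either direction. Both lists of this paragraph were chosen with earlier results known. Cdkn1a, the inhibitor p21, averaged 6.23 ± 0.35 in young fasted and 4.99 ± 0.16 in young mice fed ad libitum (SD, n = 4 and 5, adjusted p = 0.000147). Gadd45a and Gadd45b, arrest genes induced by stress, rose by 0.91 (adjusted p = 0.00095) and 0.90 (adjusted p = 0.0014) in young kidneys. Klf4, a transcription factor that can restrain proliferation, rose by 0.81 in aged (adjusted p = 0.0201) and by 0.57 in young kidneys (adjusted p = 0.000714). Btg1, an antiproliferative gene, rose by 0.37 in aged kidneys (adjusted p = 0.0213), as did Ccng2, an unconventional cyclin of resting cells, by 0.38 (adjusted p = 0.0113). In young kidneys Btg1 passed upward as well and Ccng2 did not pass. Of 22 regulators of G1 and E2F factors, 1 rose and 0 fell in aged and 5 rose and 3 fell in young kidneys. Those that rose in young kidneys were Ccnd3 (0.50, adjusted p = 0.000797), Rb1 (0.38, adjusted p = 0.00168), Cdk2 (0.46, adjusted p = 0.00884), E2f3 and Myc. Those that fell were cyclin D2 (Ccnd2), the pocket protein p107 (Rbl1) and the repressor E2f6. Myc was the gene of this list that rose in both, by 0.97 in aged (adjusted p = 0.00358) and by 0.75 in young kidneys (adjusted p = 0.00174).

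**Figure D5:**
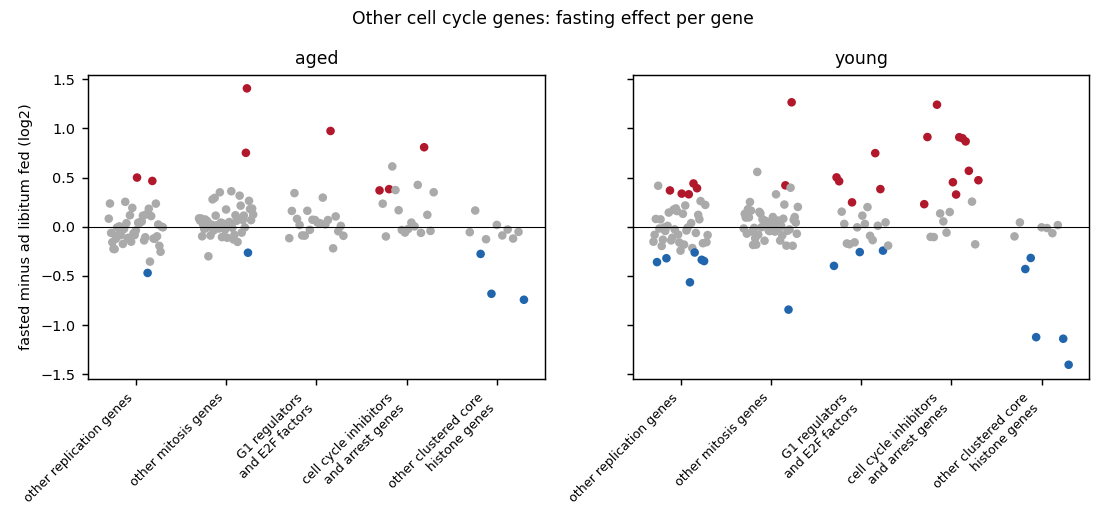
Log2 change (fasted minus ad libitum fed) of each measured gene of 5 further lists in aged (left) and young kidneys (right); red and blue points passed the test upward and downward, grey points did not. Other replication (47) and mitosis genes (53) cluster near 0, 10 of 18 inhibitors rose in young kidneys and the histone points that passed all lie below 0. Over all genes 9.16% passed in aged and 23.2% in young kidneys.

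Markers of kidney segments and of other cell types also changed with diet. Over all genes 9.16% passed in aged and 23.2% in young kidneys, in either direction. Of 13 markers of macrophages and dendritic cells, 1 fell in aged and 8 fell in young kidneys, and their mean level ranged from 5.52 to 6.05 in aged fasted and from 5.65 to 6.15 in aged mice fed ad libitum, and from 5.79 to 5.96 in young fasted and from 6.26 to 6.62 in young mice fed ad libitum. Of 6 markers of fibroblasts and pericytes, 1 fell in aged, and 3 fell and 2 rose in young kidneys, and of 3 erythroid markers 0 passed in aged and 2 fell in young kidneys. Of 8 T cell markers, 5 were dim in aged and 4 in young kidneys, 0 passed in aged and 1 (Cd3g) fell in young kidneys. Their mean levels were 3.14 to 3.57 in aged and 3.48 to 3.72 in young kidneys. Of 5 proximal tubule markers, Slc5a2 and Slc22a6 fell in both ages and Aqp1 rose in aged kidneys, and the mean was 10.83 to 10.90 in aged fasted and 10.93 to 11.22 in aged mice fed ad libitum, while the young diets overlapped. Of 7 markers of the loop, distal tubule and collecting duct, Calb1 fell in both ages and Aqp2 in young kidneys, where the mean was 9.85 to 10.03 in fasted and 10.13 to 10.24 in ad libitum fed mice. Among adipocyte markers Cidea, Cox8b, Dio2, Adig and Plin4 rose and Cox7a1 fell in young kidneys, and in aged kidneys Plin4 rose and Cox7a1 fell. The young falls of H3c14, H3c15, Kif20b, Ect2, Cenpe and Mcm6 went with these changes in markers, whose part in them was not tested.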

How the data were processed

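Total RNA of frozen kidney pieces of 19 male mice was measured with 1 array per mouse (Affymetrix HT MG-430 PM). The authors applied RMA (background correction, normalization and summarization of probe sets) through an online pipeline and deposited log2 values; the version of the pipeline is not stated. Array medians differed between the ages, so normalization seems to have been run per age, which is not stated. From these values, fasted and ad libitum fed mice were compared within each age in R 4.3.3 with limma 3.58.1 (moderated tests, Benjamini-Hochberg adjustment over 45141 probe sets), and the difference of the fasting effects, aged minus young, in a fit of the 4 group means. Scripts were tested on simulated data. Probe sets were named from the platform annotation (28898 with 1 symbol, 551 with several, 15692 with none). Values per mouse are given for the genes called in either age and the 2 brightest of each role. Of other lists, group means or changes are given for up to 4 genes per age with the smallest adjusted p. The fold minimum was 1.5. The members and all lists were chosen with earlier results of these data known. The number of arrays limits the precision. Alternatives covered the test, arrays in the fit, weights, normalization, filters, thresholds, probe sets and single mice. Batches were not given in the labels and could not be checked.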

Additional observations from a re-analysis of the deposited data

Results flagged for a closer look

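The fasting effect differed between aged and young kidneys, by the test of the difference (aged minus young), for H3c15 (2.07), H3c14 (1.94), Kif20b (1.80), Ect2 (1.21), Bub1b (-0.59) and Rad18 (-1.06). Of these, Ect2, Bub1b and Rad18 were dim in aged kidneys, and the cause of the differences was not tested. The Kif20b difference was lost in 15 of the fits that left a mouse out, and with an ordinary model or a trended, robust prior.
Of 80 groups of values examined for a mouse far from the others, 3 held one, and chance marks about 1 in 20 groups. The young fasted mouse 340 had a log2 level of 4.48 for Nusap1, with 5.14 to 5.25 in the other young fasted mice. The young ad libitum fed mouse 349 had 2.87 for Ccnb2, with 3.32 to 3.42 in the others. The aged ad libitum fed mouse 36 had a mean level of 3.38 over the mitosis genes without Kif20b, with 3.49 to 3.52 in the others.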

How the results depend on the processing

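In young kidneys the 9 calls were 5 with the mean of a gene's probe sets and 5 at a fold of at least 2, and 22 genes were dim by the median limit. In aged kidneys the 4 calls were 2 with an ordinary model without moderation, 8 without a fold minimum and 1 at a fold of at least 2, and the 8 genes that passed were 4 with the ordinary model. Leaving out each mouse gave 2 to 5 calls and 4 to 7 genes that passed in aged kidneys, 8 to 9 calls and 11 to 13 genes in young kidneys, and 4 to 7 genes that differed between the ages. The mean mitosis level, fasted minus ad libitum fed, became 0.09421 in aged and 0.03456 in young kidneys without Kif20b, an alternative chosen after seeing the data; in aged kidneys 4 of the 9 genes left were above the dim limit in 1 diet only. So were the other probe sets of a gene, of which 6 of 22 passed the test in the same direction, 12 kept the direction without passing and 4, all near 0, turned it (Kif20b 0.0439 and Rrm2 -0.0224 in aged kidneys, Cenpe 0.0014 and Tyms -0.0115 in young kidneys). Over the named genes no other setting turned a direction: 189 of 206 values stayed past the adjusted p threshold, whatever the fold, as did 224 of 274 with a mouse left out. The brightest probe set of each age and a fit of all arrays were not run for the difference between ages, which needs 1 probe set and already uses all arrays. No paired analysis was possible because the labels give no pairs. The paper describes mice matched in pairs by body weight and sex before diets were assigned. Whether the mice measured here were matched is not clearly stated. The cause of these changes was not tested beyond the fewer arrays or probe sets in each. Levels near background limit what the arrays can show for 16 of 26 mitosis genes in aged and 10 in young kidneys.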
